A study of Mus musculus with 4 samples.

Results

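Sox2, Sox3, Sox4, Sox8, Sox9, Sox10, Sox11, Olig1 and Olig2 are 9 of the 27998 genes counted in these single-cell libraries and were taken by gene symbol. The libraries come from cerebellar tumours of 4 littermate mice at postnatal day 20, with 1 library per mouse, called mice 1 to 4. All 4 mice carry Atoh1-cre:SmoM2, in which Atoh1-driven Cre switches on a constitutively active Smoothened in granule neuron precursors and medulloblastoma of the Sonic hedgehog (SHH) type forms. No mouse without the transgenes was among the samples, so cell classes were compared within the tumours. The question was which of the 9 genes mark glial or stem-like cells, which mark states of the granule lineage, and whether Sox2 or Olig2 occurs in cells without glial markers.

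Sox proteins bind DNA through an HMG box and fall into groups with different roles. Sox2 and Sox3 (group B1) maintain neural stem and progenitor cells. Sox8, Sox9 and Sox10 (group E) act in glia: Sox9 in the switch from neurons to glia and in astrocytes, Sox10 in the oligodendrocyte lineage from the precursor onwards. Sox4 and Sox11 (group C) act in neurons that have begun to differentiate. Olig1 and Olig2 are basic helix-loop-helix factors, Olig2 specifying oligodendrocyte precursors and Olig1 acting in oligodendrocyte maturation. In mouse SHH medulloblastoma, rare Sox2-positive cells have been described as slowly cycling, tumour-propagating cells, and Olig2 has been used as a marker of progenitors.

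After filtering, 4101 cells were analysed out of 5670 barcodes (1363, 888, 680 and 1170 cells in mice 1 to 4). The median depth was 2088, 2356, 1699 and 2564 unique molecular identifiers (UMIs, each 1 captured transcript) per cell. Classes were rebuilt by clustering without the 9 genes or any marker, and were then named from markers. Progenitor-like cells (3501) and differentiating granule-like cells (324) form the granule lineage. Of the glial classes, 146 cells were oligodendrocyte-lineage-like (121 precursor-like and 25 oligodendrocyte-like, 22 of the latter from mouse 4) and 83 were astroglia-like (28, 20, 7 and 28 per mouse). Mouse 3 was left out of the astroglia tests for having under 10 such cells. A further 42 cells were myeloid-like and served as background, and 5 were choroid-plexus-like. The granule-lineage markers summed to 19.3 UMIs per 10000 in progenitor-like and 36.1 in differentiating cells, against 7.21 in oligodendrocyte-lineage-like, 13.3 in astroglia-like and 4.96 in myeloid-like cells. The 28 analysed cells whose barcode occurred in more than 1 library were kept.

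Levels below are UMIs of a gene per 10000 UMIs of all genes in a class. Of the 9 genes, Sox11 had 5588 UMIs in the analysed cells, Sox4 1627, Sox9 1193, Olig1 1083, Sox8 118, Olig2 112, Sox10 79 and Sox2 65. Sox3 had 1 UMI, in an astroglia-like cell of mouse 3, and is not described further. Sox2 lies inside the Sox2ot transcript unit on the same strand (GRCm38 chr3:34650405-34652461, 1 exon), and Sox8 (chr17:25565892-25570686, minus strand, 3 exons) overlaps 2810468N07Rik on the other strand. How reads in such overlaps were counted is not given in the sources used here.

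**Figure D1:**
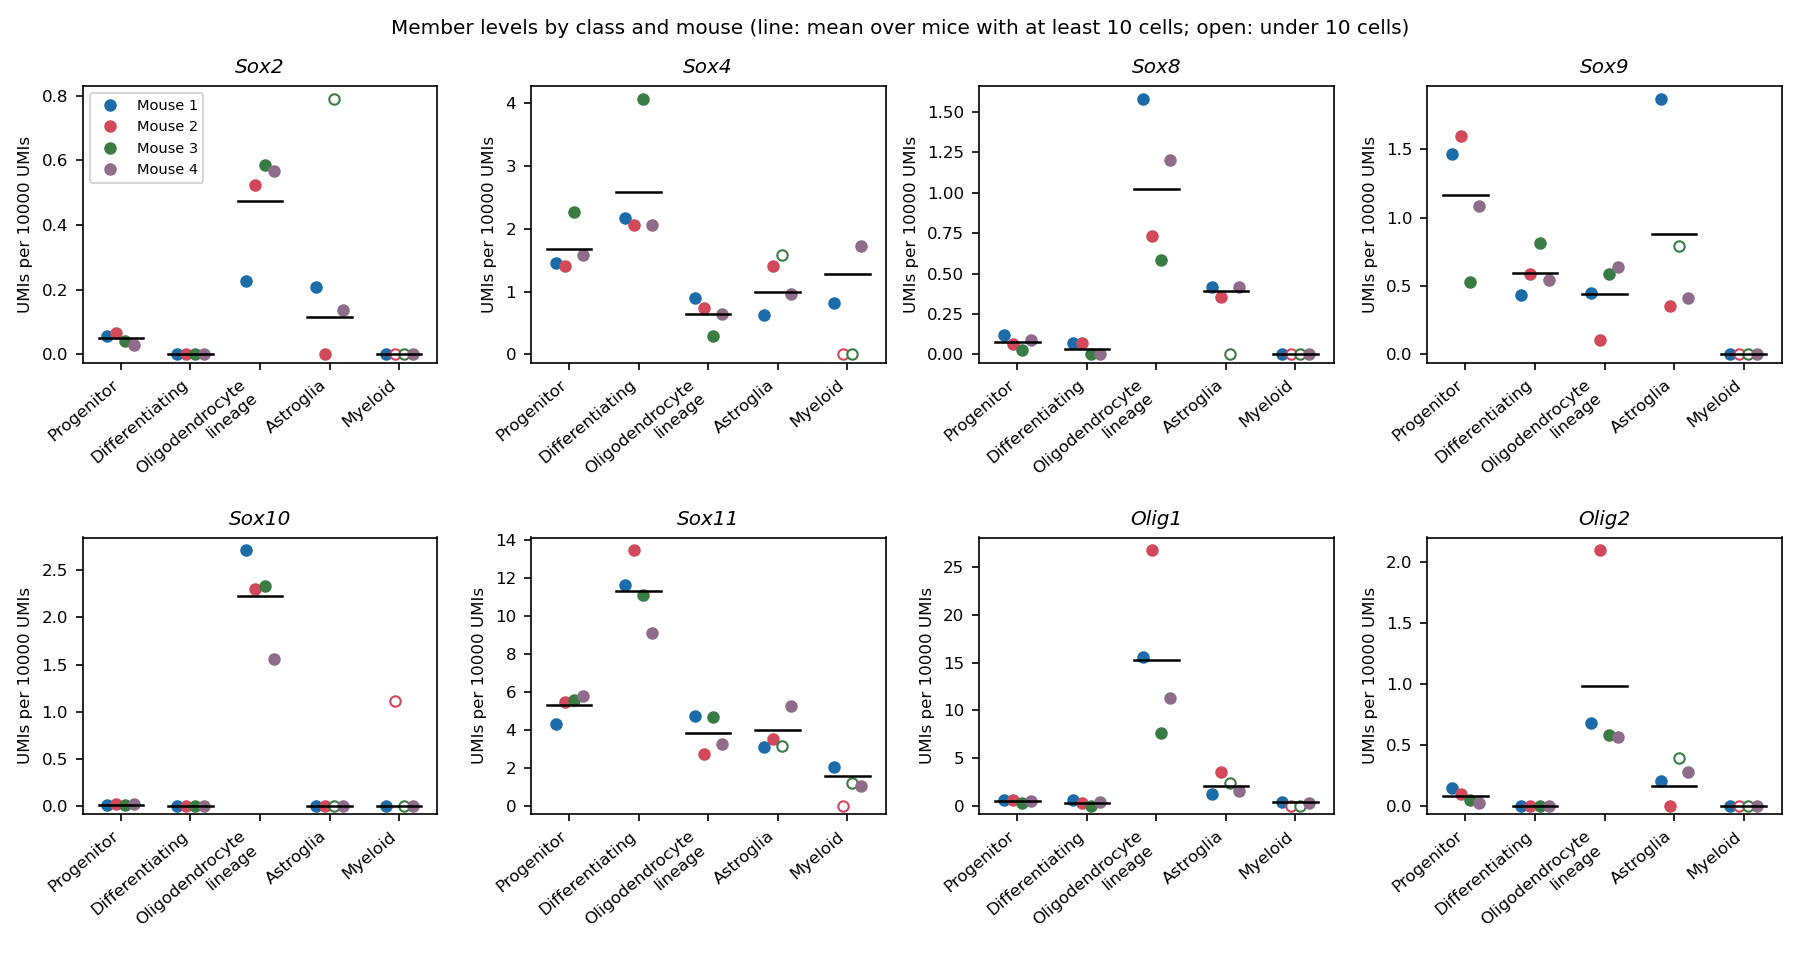
Levels of 8 genes by cell class, in UMIs per 10000 UMIs on a linear axis, with 1 point per mouse, open where the mouse has under 10 cells of the class. Lines are means over mice with at least 10 cells. Olig1, Olig2, Sox8, Sox10 and Sox2 stand highest in the oligodendrocyte lineage and Sox11 and Sox4 in differentiating granule-like cells.

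The oligodendrocyte-lineage-like cells carried the highest levels of Olig1, Olig2, Sox8, Sox10 and Sox2, and Sox4, Sox9 and Sox11 were lower there than in the granule lineage. Olig1 (chr16:91269772-91271933, 1 exon) measured 15.6, 26.8, 7.6 and 11.3 UMIs per 10000 in mice 1 to 4 in this class, against 0.640, 0.659, 0.324 and 0.531 in progenitor-like cells. Every mouse was far above its own progenitor-like cells, and mouse 2 was the highest. Olig2 (chr16:91225457-91228677, 2 exons, 41094 bases upstream of Olig1) measured 0.678, 2.09, 0.585 and 0.567, against 0.148, 0.0970, 0.0511 and 0.0238 in progenitor-like cells. Mouse 2 was again the highest, and in the progenitor-like cells mouse 1 was highest and mouse 4 lowest.

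Sox10 (chr15:79154908-79165240, minus strand, 5 exons) measured 2.71, 2.30, 2.34 and 1.56 in the oligodendrocyte lineage and 0.0106, 0.0194, 0.0085 and 0.0204 in progenitor-like cells. The 4 mice lay close together in the first class, and in the second the level rests on 14 UMIs in all. Sox8 measured 1.58, 0.732, 0.585 and 1.21, against 0.120, 0.0630, 0.0256 and 0.0919. For both genes every oligodendrocyte-lineage value lay above every progenitor value.

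In edgeR's quasi-likelihood test on UMI sums per mouse and class, with the mouse as a block and Benjamini-Hochberg adjustment, 21.9% of 7321 genes differed between oligodendrocyte-lineage-like and granule-lineage-like cells (11.7% higher, 10.2% lower). All 8 members tested were called, 5 higher and 3 lower. Sox2, Sox8, Sox10 and Olig2 had 44, 79, 14 and 75 UMIs in the granule lineage. They passed the filter on low counts through the oligodendrocyte lineage, so the count of members called is partly fixed by that filter. The log2 fold change was 7.03 ± 0.42 (SE) for Sox10 (adjusted p = 7.67e-61), 4.74 ± 0.19 for Olig1 (8.00e-133), 3.87 ± 0.43 for Olig2 (1.91e-17) and 3.74 ± 0.43 for Sox8 (9.42e-17), each higher in 4 of 4 mice. Sox2 was higher by 3.43 ± 0.56 (1.52e-08). These 5 calls were kept under every alternative that had them among the genes tested.

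The group C genes and Sox9 stood lower in this lineage. Sox4 measured 0.904, 0.732, 0.292 and 0.638 UMIs per 10000 in mice 1 to 4, below the progenitor-like cells of every mouse (1.41 to 2.27), and its log2 difference was -1.33 ± 0.31 (edgeR adjusted p = 2.64e-04). Sox11 measured 4.75, 2.72, 4.68 and 3.26, and Sox9 0.452, 0.105, 0.585 and 0.638. Sox11 differed by -0.71 ± 0.20 (0.00262) and Sox9 by -1.42 ± 0.37 (0.00129), each lower in 4 of 4 mice in the TMM-scaled CPM of the test, taken against the whole granule lineage. In UMIs per 10000, Sox9 of mouse 3 was not lower than in its progenitor-like cells (0.585 against 0.528). Sox9 was the 1 member of the 8 whose CPM overlapped between the classes over mice, where 32.4% of all genes tested did not overlap. Sox11 lost the call without mouse 2 (-0.57, 0.0818) and after thinning (-0.65, 0.0748), and Sox9 without mouse 2 (-0.85, 0.189) and with DESeq2 (0.0551).

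Of the 13 other Sox and Olig genes, 5 passed the filter on low counts and 2 were called, both higher. These were Sox6 (log2 6.71 ± 0.47, adjusted p = 3.93e-44) and Sox21 (6.09 ± 0.74, 1.10e-13), a group D and a group B2 gene. In the granule lineage they had 11 and 4 UMIs, and they too passed the filter through the oligodendrocyte lineage. Of 12 other factors of the oligodendrocyte lineage 6 were tested, 3 being higher and 1 lower, with Nkx2-2, a precursor factor, at 7.05 ± 0.58 (1.79e-31). Etv5 (1.19 ± 0.34), Zeb2 (0.93 ± 0.24) and Chd7 (-0.72 ± 0.23) each lost the call under at least 1 alternative. The list's median was 0.53, against -0.10 over all genes tested. Of 20 glial genes that no class was named from, 19 were tested, 17 higher and 1 lower, with a median of 2.59. Ptprz1 (7.86 ± 0.23), Cspg5 (7.04 ± 0.23), Ednrb (6.82 ± 0.44), Serpine2 (6.72 ± 0.20) and Scrg1 (5.89 ± 0.32) led that list, and Cnn3 (-0.56 ± 0.22) lost its call under 8 of 13 alternatives.

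Factors of neural stem cells did not move with Sox2 as a list. Of 14 such genes 10 were tested, with 2 higher, 5 lower and a median of -0.80. The Notch receptor Notch1 was higher (3.65 ± 0.55, adjusted p = 6.88e-10), and the nuclear factors Nfib (-1.34 ± 0.19, 1.34e-11) and Nfia (-0.87 ± 0.18, 2.80e-05) were lower in 4 of 4 mice. Pou3f3 (1.15 ± 0.44), Msi1 (-1.30 ± 0.47), Vim (-0.89 ± 0.29) and Nfix (-0.75 ± 0.20) passed too, and each was lost under at least 1 alternative.

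Within the oligodendrocyte lineage Olig1 stood higher in precursor-like than in oligodendrocyte-like cells. The precursor-like cells held 468 of the 511 Olig1 UMIs, 30 of the 33 Olig2 UMIs and all 14 Sox9 UMIs. They also held 247364 of the lineage's 315035 UMIs of all genes, so most UMIs of any gene would lie there. Sox2 stood at 1.18 UMIs per 10000 in the 25 oligodendrocyte-like cells (8 UMIs, 95% Poisson interval 0.510 to 2.33) and at 0.323 in the precursor-like cells (8 UMIs, 0.140 to 0.637). These intervals overlap. Sox10 measured 1.92 and 2.06 and Olig1 6.35 and 18.9 in the same order. With 22 of the 25 oligodendrocyte-like cells from 1 mouse there is no test of these differences, and the intervals cover counting error only. At the level of single cells, Olig1 was found in all 28 Olig2-positive cells of this lineage (77.1% of the others), and Sox10 in 17 of 25 Sox8-positive cells (68.0%, against 24.8% of the others).

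**Figure D2:**
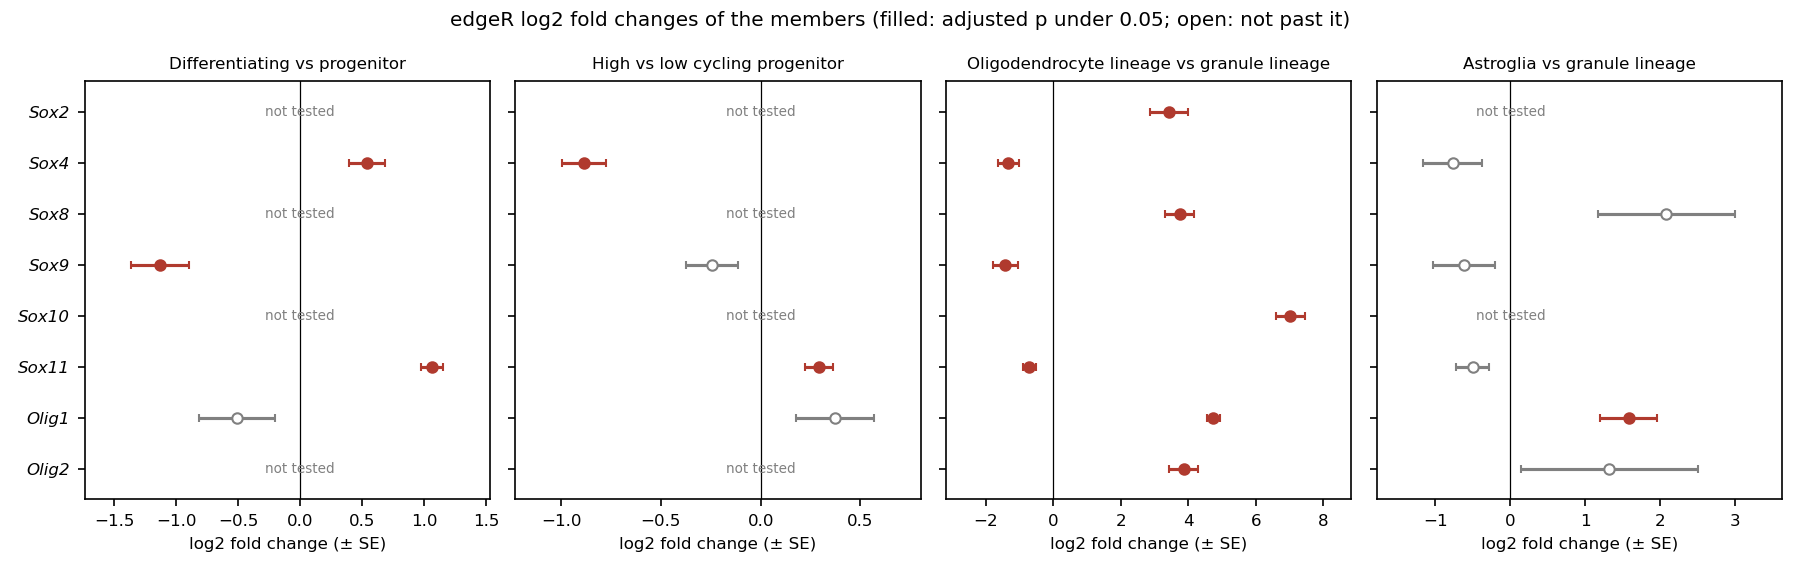
Log2 fold changes with SE from edgeR for the members in 4 comparisons (linear axes that differ between panels), filled where the adjusted p is under 0.05. In the oligodendrocyte lineage 5 genes lie right of 0 and 3 left, and in the astroglia-like cells only Olig1 is filled.

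The astroglia-like cells, which carried 70.6 UMIs per 10000 of the astroglia markers against 5.32 in progenitor-like cells, were not marked by Sox9. Sox9 (chr11:112782224-112787760, 3 exons) measured 1.87 in mouse 1, 0.353 in mouse 2 and 0.415 in mouse 4, beside 0.791 from the 7 cells of mouse 3. Progenitor-like cells had 1.46, 1.60, 0.528 and 1.09 UMIs per 10000 in mice 1 to 4. The astroglia values straddle the progenitor values, with mouse 1 above and mice 2 and 4 below. Against the granule lineage the log2 difference was -0.62 ± 0.41 (edgeR adjusted p = 0.540, 3 mice). Set against the astroglia markers, progenitor-like cells held 23.5 Sox9 UMIs per 100 marker UMIs and astroglia-like cells 1.22, where the astroglia-like class was named from those same markers.

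In that comparison 3.13% of 8244 genes were called (1.69% higher, 1.44% lower), and of 6 members tested only Olig1 was. Olig1 measured 1.25, 3.53 and 1.52 UMIs per 10000 in astroglia-like cells of mice 1, 2 and 4, above the progenitor-like cells of every mouse (34.8% of all genes tested did not overlap), with a log2 difference of 1.58 ± 0.38 (adjusted p = 0.00197, higher in 3 of 3 mice). The call was lost without mouse 2 (1.25, adjusted p = 0.210), without mouse 4 (1.54, 0.175) and with cells thinned to 1000 UMIs (1.56, 0.268). Sox8 (2.08 ± 0.92, 0.287), Olig2 (1.32 ± 1.19, 0.714), Sox11 (-0.50 ± 0.22, 0.278) and Sox4 (-0.77 ± 0.39, 0.389) did not pass. Sox10 had 0 UMIs in the 83 cells, which allows up to 0.172 UMIs per 10000. Sox2 had 4 UMIs in 3 cells, among 173970 UMIs of all genes in the class. Progenitor-like cells had 44 Sox2 UMIs among 9014520. Sox2 was not among the 6 members tested, so this difference was not tested.

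Beside these, 18 of 19 tested glial genes that named no class were higher in the astroglia-like cells, led by Ttyh1 (5.65 ± 0.64), Apoe (4.98 ± 0.19), Ptprz1 (4.80 ± 0.60), Serpine2 (4.68 ± 0.28) and Luzp2 (4.64 ± 0.54), with a list median of 4.04 against -0.35 over all genes. Of the 11 stem-cell factors tested the Notch effector Hes5 was higher (5.21 ± 0.71, adjusted p = 5.13e-11) and Nfib lower (-0.73 ± 0.19, 0.00543). Nfib was lost with DESeq2 (0.226) and without mouse 1 (0.0619) or mouse 2 (0.194). Of 7 oligodendrocyte factors Chd7 was lower (-1.64 ± 0.34, 1.14e-04), a call lost after thinning (0.292). The 2 glial classes themselves differed in Olig1 (astroglia minus oligodendrocyte lineage -3.35 ± 0.25, adjusted p = 1.23e-19, lower in 3 of 3 mice), where 29.7% of the 1090 genes tested were called (13% higher, 16.7% lower) and 37% did not overlap. Sox11, the other member tested, was 0.04 ± 0.27 (0.934), and its sign changed under 3 alternatives. Zeb2 was lower in the astroglia-like cells (-2.51 ± 0.51, 5.12e-05). Of 16 glial genes tested 7 were higher, led by Id3 (3.74 ± 0.49), Sparc (3.09 ± 0.35) and Apoe (2.38 ± 0.15), and 7 lower, led by Cspg5 (-4.07 ± 0.35), Ptprz1 (-3.13 ± 0.29) and Scrg1 (-2.34 ± 0.42).

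Along the granule lineage, Sox11 and Sox4 were higher in differentiating than in progenitor-like cells and Sox9 was lower. Sox11 (chr12:27334264-27342574, minus strand, 1 exon) measured 11.6, 13.4, 11.1 and 9.11 UMIs per 10000 in differentiating cells of mice 1 to 4 and 4.32, 5.49, 5.57 and 5.81 in progenitor-like cells. Every differentiating value lay above every progenitor value, as the CPM did for 20.7% of all genes tested. Sox4 (chr13:28948919-28953713, minus strand, 1 exon) measured 2.16, 2.06, 4.07 and 2.06 against 1.46, 1.41, 2.27 and 1.59. Mouse 3 was highest in both classes and its progenitor-like cells lay above the differentiating cells of the other mice. Sox9 fell from the progenitor values above to 0.433, 0.588, 0.814 and 0.542. It was lower in mice 1, 2 and 4 and higher in mouse 3, whose progenitor-like cells had the lowest Sox9.

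By edgeR, 20.3% of 7326 genes were called in this comparison (9.38% higher, 10.9% lower), and 3 of the 4 members tested were called. Sox11 rose by 1.06 ± 0.09 on the log2 scale (adjusted p = 1.45e-30, 4 of 4 mice) and Sox4 by 0.54 ± 0.14 (0.00197, 4 of 4 mice). Sox9 fell by 1.13 ± 0.23 (1.66e-05, lower in 3 of 4 mice), and Olig1 did not pass (-0.51 ± 0.30, 0.256), at 0.577, 0.294, 0 and 0.440 UMIs per 10000 in differentiating cells. Without the mouse as a block only Sox11 was called. Sox4 was also lost with no filter on low counts (0.0707) and at 5% mitochondrial UMIs (0.387), and Sox9 at Leiden resolution 0.5 (-0.04, 0.907).

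The 3 calls depend on which cells are named differentiating. When cell-cycle scores were removed by regression ahead of clustering, the class held 178 cells, of which 44 were among the 324 and 166 came from clusters low in Malat1, and Sox11 (-0.31, adjusted p = 0.377) and Sox4 (-0.81, 0.0759) changed sign. The differentiating class joins cluster g7 (230 cells, Malat1 at 264 per 10000) and cluster s1 (94 cells, Malat1 at 12.7 per 10000). Cluster s1 also had 2 astroglia markers raised, Gfap and Fabp7, where 3 were needed to name a glial class. Olig1 was also called under 3 of 13 alternatives: without the low-Malat1 clusters g0 and s1 (-1.10, adjusted p = 0.0381), at Leiden resolution 0.5 (-1.33, 4.99e-07) and at resolution 2 (-1.31, 0.00818).

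Sox4 and Sox11 are shown with the bases just before their RefSeq starts (GRCm38.p6), because these genes were higher together in differentiating cells. Capitals mark E-boxes, the sites of basic helix-loop-helix factors. The Sox4 window (chr13:28953714-28953949, minus strand) holds CAGCTG, 211 bases before the start. The Sox11 window (chr12:27342719-27342968, minus strand) holds CAGCTG, 210 bases before the start, and CATATG, 32 before it. Windows of 250 bases before the start were searched on both strands for the Sox cores ACAAAG or ACAATG, for the E-box CAGCTG, the E-box CATATG and the E-box CAGATG, and for the Gli core GACCACCCA, without bases annotated as exon. Exon bases were left out for the members only. Of all 32851 windows of 250 bases, kept whole, 13% hold CAGCTG and 3.46% CATATG. A match is a string of letters and not a measured site.
Sox4: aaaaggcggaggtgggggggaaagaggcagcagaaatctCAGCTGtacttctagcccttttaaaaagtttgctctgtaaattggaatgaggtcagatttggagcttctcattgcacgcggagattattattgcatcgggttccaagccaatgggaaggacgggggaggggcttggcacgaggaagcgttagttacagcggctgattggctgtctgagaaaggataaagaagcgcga
Sox11: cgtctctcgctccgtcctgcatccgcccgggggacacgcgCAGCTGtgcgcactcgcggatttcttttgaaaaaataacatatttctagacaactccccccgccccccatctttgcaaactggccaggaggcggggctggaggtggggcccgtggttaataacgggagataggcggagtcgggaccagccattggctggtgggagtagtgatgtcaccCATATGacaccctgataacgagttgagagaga

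The other lists moved in part. Of 7 genes of granule progenitors tested, 4 were lower and none higher. The differentiating class was named in part from a low level of these same genes, so their fall is not a separate result. None of 4 other Sox and Olig genes was called. Of 8 stem-cell factors tested, Nfix (0.79 ± 0.09) and Nfib (0.70 ± 0.08) were higher and Vim lower (-0.64 ± 0.18). St18 (1.95 ± 0.31), Prdm8 (1.51 ± 0.42) and Chd7 (0.43 ± 0.11) were higher and Etv5 lower (-2.15 ± 0.45) among 6 oligodendrocyte factors. St18, Prdm8 and Chd7 had 167, 105 and 2737 UMIs in progenitor-like cells too. Chd7 was lower in the oligodendrocyte lineage, a call lost under at least 1 alternative, so the list is not specific to that lineage here. Differentiating granule-like cells had 0 UMIs of Sox10, Olig2 and Sox2, which allows at most 0.0475 UMIs per 10000. Of 13 glial genes tested, Ncan (1.32 ± 0.33) and Ptn (1.13 ± 0.12) were higher and Sparcl1 lower (-2.09 ± 0.40). With the cell-cycle scores removed, Nfib (-1.10) and Chd7 (-1.24) changed sign and Nfix, St18, Etv5, Ncan, Ptn, Sparcl1 and Vim were no longer called; Vim changed sign at 5% mitochondrial UMIs (0.54) and Prdm8 was lost with DESeq2 (0.0595).

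**Figure D3:**
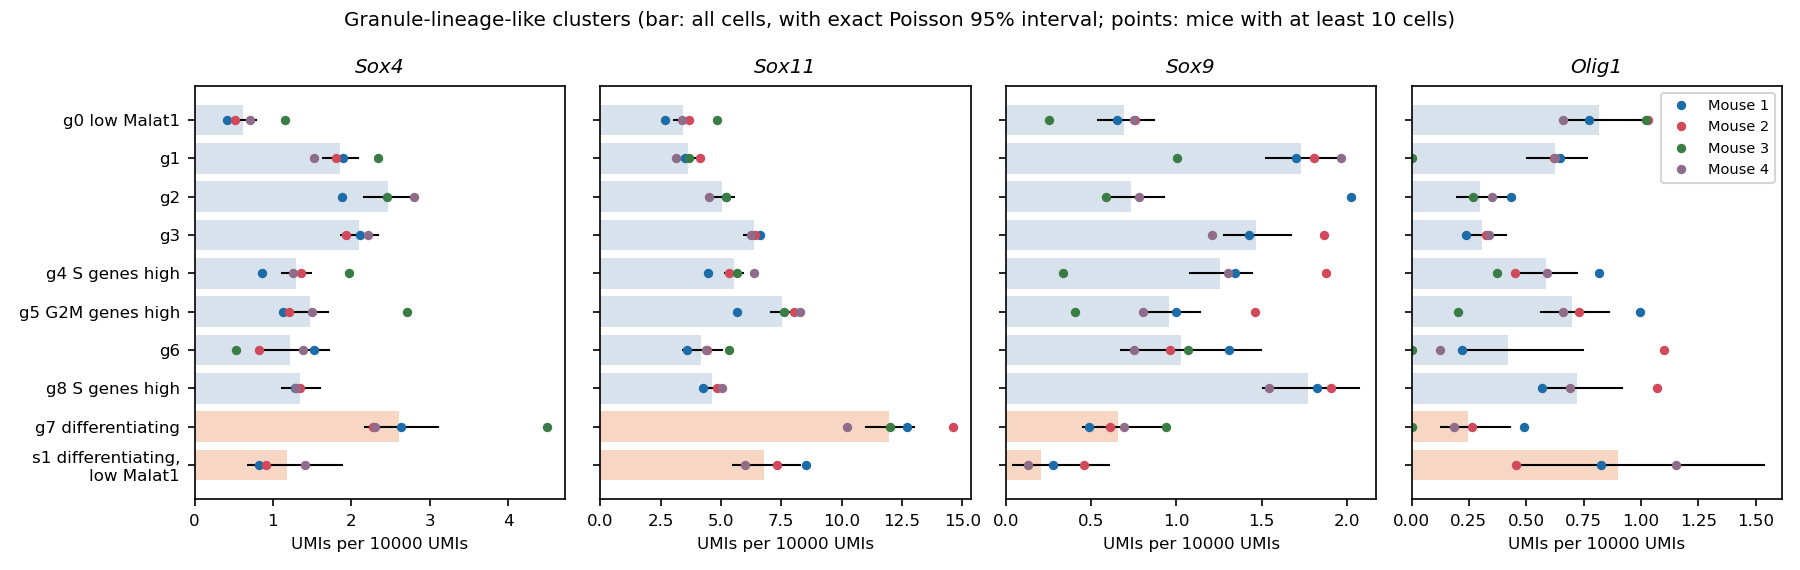
Levels of Sox4, Sox11, Sox9 and Olig1 in the 10 granule-lineage-like clusters, in UMIs per 10000 UMIs. Bars are pooled cells with exact Poisson 95% intervals and points are mice with at least 10 cells; orange bars are the differentiating clusters. Sox11 and Sox4 peak in g7, and Sox9 is highest in g1 and g8.

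Among the 10 granule-lineage clusters, Sox11 reached 12 UMIs per 10000 in the differentiating cluster g7 and 3.41 to 7.55 in the 8 progenitor-like clusters. The highest of these was g5, which carried the highest sum of G2M genes (266 per 10000). Sox4 measured 2.61 in g7 and 2.48 in g2, and 0.616 in the low-Malat1 cluster g0. Sox9 was highest in g8 (1.77), which is high in S-phase genes, and in g1 (1.73), which is led by Hes1 and Gas6, and lowest in s1 (0.208). Clusters were not drawn evenly from the mice: mouse 3 gave 349 of the 481 cells of g2, and mouse 1 gave 437 of the 613 cells of g1. Mouse 3 had the lowest Sox9 within g0, g1, g2, g4 and g5, so its low progenitor level is present within clusters. Cluster g1 also held 15 of the 44 Sox2 UMIs of progenitor-like cells (0.102 per 10000, 95% interval 0.0570 to 0.168).

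Sox4 fell and Sox11 rose with cell-cycle transcripts in progenitor-like cells. The planned split left 14 non-cycling cells and was replaced, after seeing the data, by 1238 cells with at least 15 and 633 with at most 5 UMIs of the S and G2M lists in 1000 UMIs. In this comparison 25.9% of 6545 genes were called (14% higher, 11.9% lower), and 2 of 4 members tested. Sox4 was lower in highly cycling cells by 0.89 ± 0.11 on the log2 scale (edgeR adjusted p = 8.29e-14, lower in 4 of 4 mice). Sox11 was higher by 0.29 ± 0.07 (3.37e-04, 4 of 4 mice), a call lost without the block (0.107) and after thinning (0.343), and near 0 with the cell-cycle scores removed (-0.04). Sox9 (-0.24 ± 0.13, 0.164) and Olig1 (0.37 ± 0.20, 0.161) did not pass. Hes1, a Notch effector, was lower (-1.37 ± 0.24, 2.91e-07), as were 4 other stem-cell factors of 8 tested: Vim (-0.34 ± 0.11), Nfia (-0.30 ± 0.05), Nfix (-0.27 ± 0.07) and Nfib (-0.19 ± 0.05). Each of these 4 was lost under at least 1 alternative. The list's median was -0.23, against -0.02 over all genes. Nfix and Nfib were also higher in differentiating than in progenitor-like cells in the main test, so this list does not single out stem-like cells. Of 13 glial genes tested 5 were lower, led by Bcan (-1.56 ± 0.30, 4.44e-06), and Ptn was higher (0.63 ± 0.11). Sox5, a group D gene, was lower (-0.63 ± 0.24, 0.0362) and Chd7 too (-0.28 ± 0.09), both lost under at least 6 alternatives.

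Sox2 and Olig2 transcripts were rare in the granule lineage and were found in progenitor-like cells only. Sox2 had 44 UMIs in 41 cells there (0.0563, 0.0679, 0.0426 and 0.0306 UMIs per 10000 in mice 1 to 4) and 0 in the differentiating cells. Every mouse contributed, and all 4 values lay below the oligodendrocyte-lineage values of 0.226, 0.523, 0.585 and 0.567. Olig2 had 75 UMIs in 69 cells, 38 of them from mouse 1. The floor of 0.0475 in differentiating cells lies inside the Poisson interval of Sox2 in progenitor-like cells (0.0488, 95% interval 0.0355 to 0.0655), so no difference was detectable. For Olig2 the progenitor interval (0.0654 to 0.104) lies above that floor, counting error only.

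The first bases before the RefSeq starts of these 2 genes are shown with the same motif search. The Sox2 window (chr3:34649745-34649994, plus strand) holds the Sox core ACAAAG in capitals, 206 bases before the start, which 16.5% of all windows hold. The Olig2 window (chr16:91225300-91225456, plus strand) holds none of the motifs in the 157 bases left without exon, a shorter stretch than the windows of all genes.
Sox2: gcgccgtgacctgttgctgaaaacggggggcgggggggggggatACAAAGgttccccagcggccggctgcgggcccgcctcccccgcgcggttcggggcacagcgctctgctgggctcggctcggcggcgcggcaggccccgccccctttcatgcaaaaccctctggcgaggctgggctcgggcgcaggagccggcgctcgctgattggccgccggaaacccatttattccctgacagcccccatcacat
Olig2: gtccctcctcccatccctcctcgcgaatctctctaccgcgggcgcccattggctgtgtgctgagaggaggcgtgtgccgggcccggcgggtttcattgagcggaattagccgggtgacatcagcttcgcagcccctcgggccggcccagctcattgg

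In cells thinned to 1000 UMIs, Sox2 was detected in 0.498 ± 0.114% of granule-lineage-like cells (SD over 4 mice, 16 of 3256 cells) and Olig2 in 0.702 ± 0.416% (24 of 3256). Without thinning the pooled shares were 1.07% (41 of 3825) and 1.80% (69 of 3825). The oligodendrocyte lineage had 8.47% (10 of 118 cells, exact 95% interval 4.14 to 15%) for each of Sox2 and Olig2 after thinning, and the astroglia-like cells 1.56% (1 of 64). Myeloid-like cells, which should lack both, had 0 of 31 cells, which allows a share of up to 9.68% and so sets no useful background for genes this rare. Their median depth was 1230.5 UMIs against 2113 in the granule lineage. For Sox9 the myeloid-like cells had 0 of 42 cells before thinning, which allows up to 7.14%, against 838 of 3825 (21.9%) in the granule lineage. For Olig1 they had 2 of 42 (4.76%, interval 0.582 to 16.2%), against 435 of 3825 (11.4%), so the Olig1 share in the granule lineage lies within the background's interval.

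**Figure D4:**
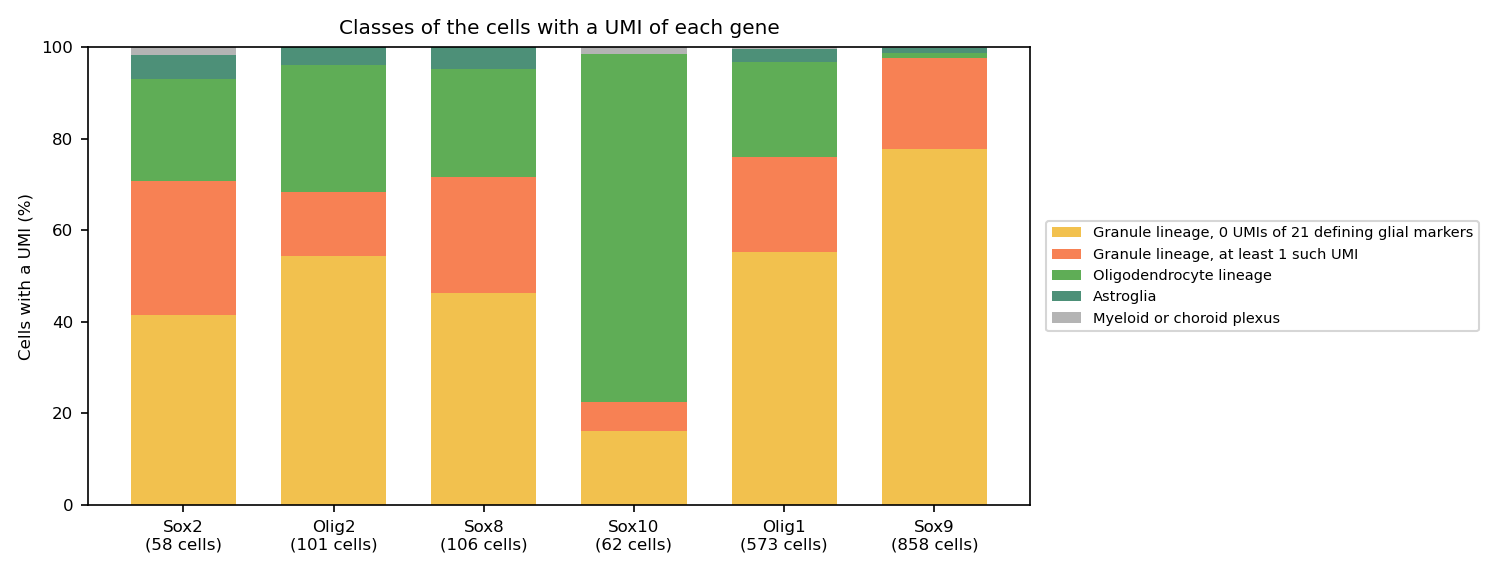
Classes of the cells with at least 1 UMI of each gene, in percent of such cells (counts under the names). Yellow marks granule-lineage-like cells without any UMI of the 21 defining glial markers, 24 of 58 cells for Sox2 and 55 of 101 for Olig2; Sox10 is the gene most held by the oligodendrocyte lineage.

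Sox2 and Olig2 did occur in cells with no glial marker. Of the 34 markers of astroglia, precursors and oligodendrocytes, 7 were at 0.5 UMIs per 10000 or more in progenitor-like cells themselves, and only 960 of 3825 granule-lineage-like cells (25.1%) had none. Among the 41 Sox2-positive cells 4 had none, and among the 69 Olig2-positive cells 11. A second gate, set after seeing the data, used the 21 markers that were at least 10-fold higher in a glial class and at most 0.25 UMIs per 10000 in progenitor-like cells, such as Aqp4, Lhfpl3, Matn4 and Cnp. It was passed by 3150 cells (82.4%), among them 24 Sox2-positive cells (58.5%; 11, 8, 3 and 2 in mice 1 to 4) and 55 Olig2-positive cells (79.7%; 28, 17, 6 and 4).

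The second gate was passed by 58.5% of Sox2-positive against 82.6% of Sox2-negative cells, and by 79.7% of Olig2-positive against 82.4% of Olig2-negative cells. Positive cells were deeper, with medians of 3123 against 2099 UMIs for Sox2 and 3695 against 2094 for Olig2, and a deeper cell has more chances to show a marker. With markers counted in 1000 UMIs per cell the shares were 82.9% against 91.6% for Sox2 and 91.0% against 91.5% for Olig2. In 2000 UMIs they were 66.7% against 85.8% for Sox2. These are descriptions with no test.

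The gated cells carried granule-lineage transcripts. All 24 Sox2-positive cells and 53 of 55 Olig2-positive cells (96.4%) had a UMI of a granule-lineage marker, against 92.0% of the Sox2-negative cells. The greater depth of positive cells raises such shares. The markers summed to 15.6 UMIs per 10000 in the Sox2-positive and 14.7 in the Olig2-positive cells, against 20.7 and 20.8 in their negatives. The same sum was 13.3 in astroglia-like and 7.21 in oligodendrocyte-lineage-like cells. The 20 glial genes outside the gate summed to 18.4 and 12.3, against 13.4 and 13.5 in the negatives. These 20 genes summed to 106 in oligodendrocyte-lineage-like and 182 in astroglia-like cells. In myeloid-like cells they summed to 409, so the list is not specific to the 2 glial classes. Sox10 was found in none of the 24 or 55 cells. It was found in only 10 of all 3150 gated cells, too few for this absence to tell anything. Sox2 and Olig2 met in 1 cell. Olig1 was found in 9 of the 24 Sox2-positive cells (37.5%, against 9.82% of the others) and in 15 of the 55 Olig2-positive cells (27.3%, against 9.73%). In the thinned cells these were 0 of 9 and 2 of 22, so the depth of the positive cells moves with these shares, and its part in them was not tested.

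How these genes stood to the precursor markers in progenitor-like cells depended on the markers used. Per 100 UMIs of all 8 precursor markers, progenitor-like and precursor-like cells held 4.02 and 4.05 Olig2 UMIs, 27.4 and 63.2 of Olig1, 4.13 and 2.70 of Sox8, 2.36 and 1.08 of Sox2 and 0.750 and 6.88 of Sox10. Olig2 was thus in nearly the same proportion in both classes, Olig1 and Sox10 were lower in progenitor-like cells, and Sox8 and Sox2 higher. Per 100 UMIs of the 5 markers that are also in the second gate, which were chosen as low in progenitor-like cells, the values were 66.4 and 5.65 for Olig2, 453 and 88.1 for Olig1, 68.1 and 3.77 for Sox8, 38.9 and 1.51 for Sox2 and 12.4 and 9.60 for Sox10. That choice raises the ratios in progenitor-like cells. The share of these UMIs that comes from RNA of other cells was not tested.

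Other members were found in gated cells as well: Sox9 in 667 of its 838 granule-lineage cells (79.6%), Olig1 in 316 of 435 (72.6%), Sox8 in 49 of 76 (64.5%) and Sox10 in 10 of 14. For Sox9, Olig1 and Olig2, gated cells with and without a UMI were compared by edgeR in the mice with at least 5 positive cells. No gene was called for Olig2 (3 mice, 6452 genes tested, 296 with an unadjusted p under 0.05, 0 called with DESeq2), and 4 were without mouse 3. Olig1 was at 1.00 ± 0.42 there (adjusted p = 0.940, higher in 3 of 3 mice). For Sox2, 2 mice had at least 5 such cells (11 and 8), and no test was run.

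Sox9-positive cells differed in 75 of 7576 genes (0.99%; 21 or 0.277% higher, 54 or 0.713% lower). Lower in 4 of 4 mice were the neuronal adhesion gene Opcml (-1.89 ± 0.36), the synaptic vesicle gene Rab3a (-0.86 ± 0.16), Mllt11 (-0.81 ± 0.13) and the neuronal microtubule regulator Stmn2 (-0.77 ± 0.07, adjusted p = 2.16e-27), beside Tmem206 and Sbk1. Prr5 (1.2 ± 0.27), Efcab14, Rfwd2, Suv39h2, Zfp36l1 and Hist1h2al were the 6 with the largest rise among those higher in 4 of 4 mice. Olig1-positive cells differed in 150 of 7028 genes (2.13%; 82 or 1.17% higher, 68 or 0.968% lower). The mitotic genes Kif23 (1.06 ± 0.19), Aurkb (0.93 ± 0.14), Plk1 (0.93 ± 0.19), Ckap2 (0.90 ± 0.21) and Gas2l3 (0.90 ± 0.23) and the signalling gene Nfkb1 (1.32 ± 0.40) rose most among the genes higher in 4 of 4 mice. Etv5, from the list of oligodendrocyte factors, rose by 1.36 ± 0.18 (8.87e-10), higher in 3 of 4 mice. It is also among the leading genes of the progenitor-like cluster g1, and was lower in differentiating than in progenitor-like cells (-2.15). Cntn2, a differentiating granule marker (-1.84 ± 0.44), Plcb1, Setdb1, Stard3, Tex14 and Pak7 fell most among those lower in 4 of 4. Both splits pool progenitor-like and differentiating cells, and Opcml, Rab3a, Mllt11, Stmn2 and Cntn2 are among the leading genes of clusters g7 or s1. Before gating, 29 of 838 Sox9-positive and 19 of 435 Olig1-positive granule-lineage cells were differentiating, against 324 of all 3825. The part of this class mix in the calls was not tested. Positive cells are deeper by the way they are found, at 3158 against 1865 UMIs for Sox9 and 3211 against 2007 for Olig1. With positives defined after thinning every cell to 1000 UMIs, 4 genes were called for Sox9 and 0 for Olig1. Without the block 0 were called for either.

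Cycling, read as a UMI of Mki67 or Top2a, could not be compared under the planned gate, which left no mouse with 5 Sox2-positive cells. In the shares below, Sox2 or Olig1 status was read at full depth, and only the count of Mki67 and Top2a was thinned. Positive cells are deeper, and the part of depth in these shares was not tested. Over all granule-lineage-like cells thinned to 1000 UMIs, 41.7 ± 23.7% of Sox2-positive and 27.3 ± 2.75% of Sox2-negative cells had such a UMI (SD, 4 mice, higher in 3 of 4; exact two-sided sign-flip permutation test, p = 0.375, where 0.13 is the smallest possible). The difference of 14.3 percentage points lay between 8.19 and 23.0 when a mouse was left out. At 2000 UMIs, with 3 mice, the shares were 38.0 ± 10.4% and 42.3 ± 5.01%, in the other direction. In the cells that passed the second gate, with 2 mice, they were 23.3 ± 20.1% and 25.6 ± 0.987% at 1000 UMIs. Olig1-positive gated cells had 35.9 ± 7.59% against 25.7 ± 3.08%, higher in 4 of 4 mice, again with 0.13 as the smallest p. Without mouse 1 the difference of 10.2 percentage points was 5.74, and at 2000 UMIs the shares were 53.6 ± 8.11% and 47.2 ± 12.4%, higher in 3 of 4 mice.

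Over 17 profiles of a class in a mouse (5 classes), the genes most like each member in log2 level were sought among 8134 genes. These profiles share libraries and differ in depth, and the correlations are descriptions. Sox8 was most like Gpr37l1 (Pearson r 0.957), Plpp3 (0.934) and Timp4 (0.927), Olig1 most like 3110035E14Rik (0.937), Slc1a1 (0.936) and Gpr37l1 (0.926), and Olig2 most like Tril (0.953), Itgb8 (0.911) and Ptprz1 (0.904). Sox11 was most like Barhl1 (0.923), Kif5c (0.921) and Nrn1 (0.920), and Sox4 most like Ralgapa2 (0.862), Pax6 (0.838) and Dctn2 (0.819). Sox9 was most like Nkd1 (0.913), Tcp1 (0.911) and Bccip (0.910). Among the members Olig1 and Sox8 were most alike (0.918), Sox4 and Sox11 less so (0.493), and Sox4 ran against Olig1 (-0.761).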

How the data were processed

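Single cells of 4 tumours were captured with 10x 3' chemistry. The values deposited by the authors are raw UMI counts per gene and barcode, made with Cell Ranger 2.0.2 on mm10, per the submitters' processing notes. Cells with at least 500 genes and at most 10% mitochondrial UMIs were kept (4137), and 36 doublets called by Scrublet were removed, 30 of them in mouse 3. The study states 4749 cells, and 4620 passed the gene filter alone. Clustering used scanpy 1.11.5 (2000 variable genes, 30 components, 15 neighbours, Leiden resolution 1), leaving out 438 genes that include members and markers. Sums of counts over the cells of a class in a mouse (at least 10 cells) were tested in edgeR 4.0.16 under R 4.3.3 (TMM, quasi-likelihood, Benjamini-Hochberg, threshold 0.05). Mouse was a block because both classes come from the same animals. Deviations of paired sums correlated at 0.052 to 0.470 in the 5 class comparisons. On simulated counts for 3 class comparisons, 3 to 16% of genes changed by 1 and 31 to 58% of genes changed by 2 on the log2 scale were recovered, with 0 to 8.11% false calls. The simulated counts had a fixed dispersion of 0.05 and no mouse effect, unlike the data. Recovery was taken over all changed genes, including those that failed the filter on low counts. These figures are therefore not the power or error rate of the real tests. DESeq2 1.42.0, no filter on low counts, no block, thinning, other resolutions, cell-cycle regression, at most 5% mitochondrial UMIs and leaving out mice were alternatives. The members and lists were chosen with earlier results of these data known. The second gate, the cycling comparison and the Sox9 and Olig1 splits were chosen after seeing the data. All members were named, with at most 5 list genes per direction by size of change, and 6 per direction for splits. Promoters of 4 of the 9 members were read from RefSeq (GRCm38.p6), positions from GENCODE. Intervals cover counting error only.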

Additional observations from a re-analysis of the deposited data

Results flagged for a closer look

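In 20 groups of 4 mice, the gap between the highest or lowest mouse and its neighbour was compared with the whole range, and chance alone gives a gap above Dixon's 95% critical value in about 1 of 20 groups. Sox4 in differentiating granule-like cells was 4.07 UMIs per 10000 in mouse 3 against 2.06 to 2.16 in the other mice, a gap of 0.946 of the range. Olig2 in the oligodendrocyte lineage was 2.09 in mouse 2 against 0.567 to 0.678, a gap of 0.927.

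The 1569 barcodes left out of the analysis also held UMIs of the members: 434 of Sox11, 211 of Olig1, 126 of Sox4, 62 of Sox9, 16 of Sox8, 11 of Sox10, 11 of Olig2 and 7 of Sox2. Per 10000 UMIs, Olig1 measured 1.70 in them and 1.06 in the analysed cells, while Sox9 measured 0.50 and 1.17, Sox4 1.02 and 1.59 and Sox11 3.5 and 5.46.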

How the results depend on the processing

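Leaving out each mouse in turn gave 3 members called in the differentiating comparison each time, 6 to 8 in the oligodendrocyte lineage, 0 to 1 in astroglia-like cells (Olig2 there from -0.079 to 2.07 on the log2 scale) and 1 to 2 between the glial classes (Sox11 from -0.51 to 0.40). Olig1 in the Sox9 split ranged from -0.15 to 0.067. With no replicate block, that is without pairing classes by mouse, 1 member was called in the differentiating and 1 in the cycling comparison, and the block changed no other count of members. Olig1 in the Sox9 split then was 0.046 and Sox9 in the Olig1 split 0.054. With cell-cycle scores regressed out, 1 member was called in the differentiating comparison (Sox4 -0.81, Sox11 -0.31, Olig1 0.89, Chd7 -1.24, Nfib -1.10) and 3 in astroglia-like cells, and Sox11 was -0.64 between the glial classes and -0.041 in the cycling comparison. Only 44 of the 178 cells then called differentiating were among the original 324.

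After thinning to 1000 UMIs, 5 members were called in the oligodendrocyte lineage, 0 in astroglia-like cells and 1 in the cycling comparison. Sox9 was then 0.10 in the cycling comparison and -0.14 in the Olig2 split, and Olig1 was 0.36 in the Sox9 split. Leiden resolution 0.5 gave 4 and resolution 2 gave 2 members in astroglia-like cells, and both gave 2 between the glial classes, as did no filter on low counts and leaving out the deep precursor-like cluster. Sox9 was 0.037 in the cycling comparison at resolution 0.5, and -0.046 in the Olig2 split with no filter. Sox11 was -0.077 between the glial classes with DESeq2. At most 5% mitochondrial UMIs gave Vim 0.54 in the differentiating comparison and Olig1 0.081 in the Sox9 split, which was 0.024 with no gate and 0.18 without the clusters low in Malat1. Sox9 in the Olig1 split was 0.11 with no gate. The share of granule-lineage-like cells with Sox2 was 1.07% unthinned and 0.917% at 2000 UMIs, and with Olig2 1.68% and 1.62% (means over mice). The cause was not tested for any of these changes.

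Not run for want of cells or mice were the planned cycling comparison, the planned Sox2 and Olig2 splits, the cycling share under the 34-marker gate, and the glial comparisons at 5% mitochondrial UMIs. Depth limits Sox2, Olig2, Sox8 and Sox10 in the granule lineage, where each rests on 14 to 79 UMIs.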
